A study of Rattus norvegicus with 9 samples.

Results

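The change from 21% to 100% oxygen was examined in rat lung for the probe sets on which spontaneous breathing and mechanical ventilation moved in the same direction. A probe set, a group of oligonucleotides that reads 1 transcript, was a member where its change with oxygen had the same sign in both breathing modes. Of 8740 probe sets that were not array controls, 3659 (41.86%) were members, 2034 higher and 1625 lower with 100% oxygen. A further 3892 (44.53%) moved in opposite directions in the modes, and 1189 had a change of 0 in a mode. After the dimmest 40% were set aside 5244 probe sets were tested, of which 2547 (48.57%) were members, 1387 higher and 1160 lower. These probe sets stood for 3181 genes, 1498 of them members.

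Total RNA of rat lung tissue was measured on 9 arrays that belong to 4 groups. The groups were spontaneously breathing rats with 21% oxygen (NonVen21 in the titles) or 100% oxygen (NonVen100), and mechanically ventilated rats with 21% (Ven21) or 100% oxygen (Ven100). Each group held 2 samples, lettered a and b. The letter b sample of Ven100 was read on 2 arrays, which were averaged and counted once, so that 8 samples entered, 4 at each oxygen level. Strain, age, sex, length of exposure, ventilator settings and anaesthesia are not stated in the labels. No label says that the letters are separate animals, so the p-values rest on the spread of these 8 samples, part or all of which may be technical.

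Values are deposited intensities on a linear scale, with a 2% trimmed mean of 801 on every array, and the number of arrays limits their precision. From 18.4% to 20.01% of each array's values were 0 or negative. The brightest signals were lower on the 3 mechanical 100% arrays, with a 99th percentile of 7072 to 8357 against 9931 to 14581 on the other arrays. Changes are differences of log2(intensity + 40) between 100% and 21% oxygen, which understates those of dim genes. The average change gives both modes equal weight. A change was called where limma's moderated test gave a Benjamini-Hochberg adjusted p under 0.05 over the 5244 probe sets, and "rose" and "fell" are used for called average changes. In a bulk sample fewer cells of a type and less RNA in each cell cannot be told apart.

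High oxygen raises the formation of reactive oxygen species in mitochondria and other compartments. Oxidants release the transcription factor Nrf2, which binds antioxidant response elements and switches on haem oxygenase, thioredoxin and glutathione enzymes. Damaged or unfolded protein frees the heat shock factor Hsf1, which binds arrays of inverted GAA units and induces chaperones. Prolonged exposure to pure oxygen injures the alveolar epithelium and the capillary endothelium of rodent lungs, and mechanical ventilation adds stretch, itself an inducer of immediate early genes.

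Averaged over the modes, 1309 of 5244 tested probe sets were called (25.0%), 668 higher (12.7%) and 641 lower (12.2%). Of these, 1041 (79.53%) were members, 509 higher with a median log2 change of 0.66 and 532 lower with a median of -0.57. The median over all tested probe sets was 0.046. The other 268 were called on average without the same sign in both modes. The called members made up 9.71% (higher) and 10.1% (lower) of the tested probe sets. They stood for 580 genes, 285 higher and 295 lower, which is 8.96% and 9.27% of the 3181 tested genes, the shares beside which the counts of each list are given below. Quantile normalization, which gives all arrays the same distribution, turned the balance of calls to 546 higher and 699 lower, and cyclic loess to 575 and 679. The count of calls fell to 636 without letter b of mechanical 21% and to 726 without letter a of mechanical 100%.

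Within spontaneous breathing 879 probe sets were called (16.8%), and within mechanical ventilation 1841 (35.1%). These contrasts compare different samples, but they come from the same fit with a spread estimated from all 8 samples. Calls in both modes are thus not independent of each other. In both tests together 433 probe sets were called, of which 104 were higher in both modes, 57 were lower in both and 272 had opposite signs. The 161 called the same way in both modes make up 15.47% of the 1041 called members. Another 583 called members passed in mechanical ventilation alone, 181 in spontaneous breathing alone and 116 in neither. A call in 1 mode alone does not show that the modes differ. Across tested probe sets the changes in the modes had a Pearson correlation of -0.071 and a Spearman correlation of -0.051, as a description over probe sets that share the same arrays. Among tested probe sets a shared sign was thus about as frequent as its absence. The description of 4 arrays, those of NonVen21, letter a of Ven100 and 1 array of its letter b, carries a line for a lot batch without a lot. In spontaneous breathing the line marks 21% oxygen alone, and under mechanical ventilation 100% alone. The change within each mode, its sign and the correlation between modes thus cannot be told apart from the line, except within the arrays of mechanical 100%. Without letter a or b of spontaneous 100% the 104 became 50 and 52, and without letter a of spontaneous 21% or a or b of mechanical 21% the 57 became 17, 19 and 18. A term for the lot line, fitted on the 9 arrays singly, left 1331 average calls, but 128 within spontaneous breathing and 898 within mechanical ventilation. In that fit 26 probe sets were called higher and 7 lower in both modes. Its Pearson correlation between the modes was -0.13, and 47.25% of tested probe sets shared a sign.

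**Figure D1:**
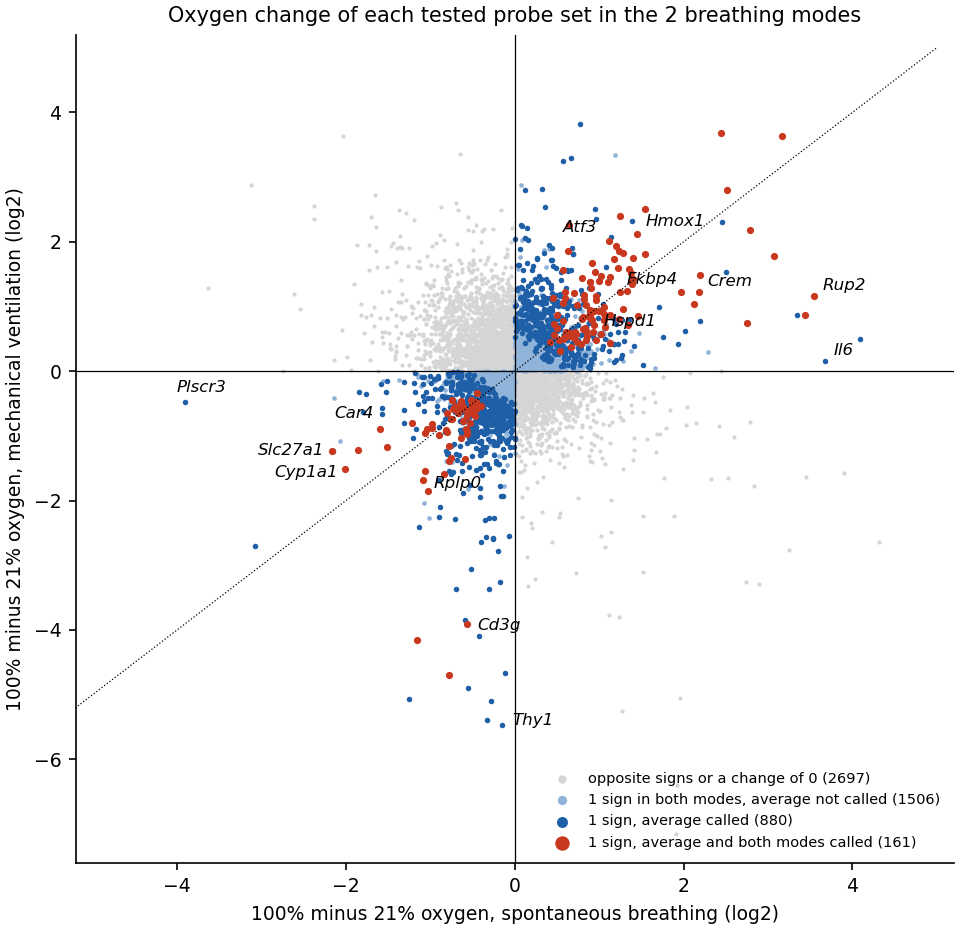
The log2 change from 21% to 100% oxygen in spontaneous breathing (horizontal) and in mechanical ventilation (vertical) for the 5244 tested probe sets. The members lie in the upper right and the lower left, the 161 that were also called in each mode in red, and the 2697 probe sets with opposite signs or a change of 0 in a mode are grey.

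In 545 of the 1041 called members (52.35%) all 4 samples with 100% oxygen lay on the same side of all 4 with 21%, 334 above and 211 below. Over all tested probe sets 684 (13.0%) had no overlap. The size of the change reached 1 on the log2 scale, a doubling, in both modes for 51 called members, 38 higher and 13 lower, of which 40 carried a single gene symbol for 34 genes. At the level of genes, 50 (1.57%) were called higher and 30 (0.943%) lower in both modes, each gene read by its brightest probe set with a single symbol. For 47 of the 50 and 26 of the 30 the samples did not overlap between oxygen levels.

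Many chaperones and partner genes rose. Of 23 tested genes on the heat shock list, 10 (43.5%, against 8.96% of all tested genes) rose with the same sign in both modes, and 9 of these were called in each mode, against 1.57% of all tested genes. A further 3 (13%, against 9.27%) fell. The median average change of the list was 0.58. Among the 50 genes called higher in both modes, these 9 are joined by Dnaja4, a co-chaperone of Hsp70, Cct6a, a subunit of the cytosolic chaperonin, and Hikeshi, which carries Hsp70 into the nucleus, the last pair named after their values were seen.

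The promoters of these genes were searched for the unit that Hsf1 binds. RefSeq promoters (build GRCr8, 250 bases before to 50 after the start of a gene) were available for 8 of the 10 genes that rose, and 7 of the 8 held the heat shock unit TTCNNGAA or GAANNTTC on either strand, where N is any base. The unit was found in 11.1% of 2609 promoters of tested genes and in 15.4% of all 27457 promoters in the table. The genes searched come from a list of heat shock genes, and promoters of list genes that did not rise were not compared. The share thus cannot tell the rise with oxygen from the make-up of the list. Matches can overlap each other. The 6 promoters below belong to genes called higher in both modes, are written 5′ to 3′ on the strand of the gene, and have each match in capitals.
Hspd1, chr9:64083988-64084287, minus strand: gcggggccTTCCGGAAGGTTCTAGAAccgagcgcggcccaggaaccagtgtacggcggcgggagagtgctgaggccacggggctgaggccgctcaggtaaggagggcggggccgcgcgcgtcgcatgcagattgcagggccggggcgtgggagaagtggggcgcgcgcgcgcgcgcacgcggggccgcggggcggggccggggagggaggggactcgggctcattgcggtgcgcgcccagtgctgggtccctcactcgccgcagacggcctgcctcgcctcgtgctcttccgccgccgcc
Chordc1, chr8:23650571-23650870, plus strand: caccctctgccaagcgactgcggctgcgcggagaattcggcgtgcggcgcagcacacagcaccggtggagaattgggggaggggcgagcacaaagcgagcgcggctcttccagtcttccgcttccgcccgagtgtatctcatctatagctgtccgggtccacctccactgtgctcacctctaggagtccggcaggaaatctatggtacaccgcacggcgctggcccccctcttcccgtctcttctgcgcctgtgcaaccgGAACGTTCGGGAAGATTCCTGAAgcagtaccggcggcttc
Hsph1, chr12:10427118-10427417, plus strand: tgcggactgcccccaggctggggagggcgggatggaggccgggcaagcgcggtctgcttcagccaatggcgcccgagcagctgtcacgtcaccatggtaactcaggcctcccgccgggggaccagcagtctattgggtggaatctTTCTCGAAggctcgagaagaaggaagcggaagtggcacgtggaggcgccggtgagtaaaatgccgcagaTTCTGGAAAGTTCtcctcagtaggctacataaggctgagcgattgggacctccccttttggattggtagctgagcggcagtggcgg
Dnajb1, chr19:41431092-41431391, minus strand: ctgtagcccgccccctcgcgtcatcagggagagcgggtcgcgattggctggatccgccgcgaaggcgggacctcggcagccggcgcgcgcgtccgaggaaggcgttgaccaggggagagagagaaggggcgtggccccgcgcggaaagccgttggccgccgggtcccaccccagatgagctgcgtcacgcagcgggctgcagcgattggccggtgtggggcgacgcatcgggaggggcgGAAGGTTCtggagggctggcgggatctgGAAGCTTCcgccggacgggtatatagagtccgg
Stip1, chr1:213657605-213657904, minus strand: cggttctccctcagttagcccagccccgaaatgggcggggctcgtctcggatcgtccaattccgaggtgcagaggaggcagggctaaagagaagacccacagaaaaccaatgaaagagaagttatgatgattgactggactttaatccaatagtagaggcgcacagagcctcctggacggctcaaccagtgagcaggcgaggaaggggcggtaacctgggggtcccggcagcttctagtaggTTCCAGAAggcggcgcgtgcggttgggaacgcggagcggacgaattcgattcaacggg
Fkbp4, chr4:163397869-163398168, minus strand: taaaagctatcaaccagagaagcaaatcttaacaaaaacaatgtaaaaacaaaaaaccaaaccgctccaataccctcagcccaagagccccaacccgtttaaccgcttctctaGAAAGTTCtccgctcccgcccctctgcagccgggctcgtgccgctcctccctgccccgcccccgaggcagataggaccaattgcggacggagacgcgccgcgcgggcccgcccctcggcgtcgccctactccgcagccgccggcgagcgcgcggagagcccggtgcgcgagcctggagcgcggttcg
In the promoter of Hspd1 3 overlapping matches form a single run of GAA and TTC units that begins 242 bases before the start. Chordc1 holds 4 overlapping matches just after its start and Hsph1 a pair of overlapping matches 36 bases before it, while Stip1 has a single match 8 bases before its start. Dnaja1, called on average but not under mechanical ventilation, held 3 matches, and the promoter of Hspa1a in the table held none of these letters.

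Several of those that rose are partners of Hsp90 or Hsp70. Fkbp4, an immunophilin that binds Hsp90 in steroid receptor complexes, went from 2280.4 and 1781 to 5111 and 4454 in spontaneous breathing and from 1773 and 1693 to 5250 and 5435 under mechanical ventilation (average log2 change 1.41 ± 0.10 (SE), adjusted p = 1.4e-04). All 100% samples lay above all 21% samples. Stip1, which links Hsp70 to Hsp90, went from 1626 and 1649 to 3517 and 3625 in spontaneous breathing and from 1682 and 1764 to 4715 and 4368 under mechanical ventilation (average log2 change 1.24 ± 0.08 (SE), adjusted p = 6.6e-05). St13, an Hsp70 partner that works beside Stip1, went from 2012 and 2009 to 4061 and 3842 in spontaneous breathing and from 1964 and 1739.5 to 4314 and 4029 under mechanical ventilation (average log2 change 1.06 ± 0.08 (SE), adjusted p = 1.7e-04). For all 3 genes the 4 samples with 100% oxygen stood above the 4 with 21%. Chordc1, an Hsp90 partner, went from 2146 and 1875 to 4855 and 4019 in spontaneous breathing and from 2018 and 2418 to 4189.9 and 3983 under mechanical ventilation (average log2 change 1.00 ± 0.10 (SE), adjusted p = 7.6e-04).

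Other members that rose in both modes include Hsp60 and Hsp40 genes. Hspd1, the mitochondrial chaperonin Hsp60, went from 4180.4 and 4399.7 to 7629.5 and 8873 in spontaneous breathing and from 4630.3 and 4131 to 8398 and 8303 under mechanical ventilation (average log2 change 0.93 ± 0.09 (SE), adjusted p = 4.1e-04), and its change was 0.93 in spontaneous breathing and 0.93 under mechanical ventilation. Dnajb1, the stress-inducible Hsp40, went from 2403 and 2497 to 4288 and 4921 in spontaneous breathing and from 3283 and 2930.2 to 5808 and 5540.2 under mechanical ventilation (average log2 change 0.88 ± 0.08 (SE), adjusted p = 5.5e-04). Dnaja4 went from 3388 and 3346 to 9328 and 7298 in spontaneous breathing and from 2061 and 2767 to 8563 and 8565 under mechanical ventilation (average log2 change 1.55 ± 0.12 (SE), adjusted p = 1.7e-04). None of the 3 genes had an overlap between oxygen levels, which the naming rule required of Dnaja4. The inducible Hsp70 gene Hspa1a went from 6936 and 6995 to 8920.1 and 12655 in spontaneous breathing and from 3964 and 3966 to 5617 and 6154 under mechanical ventilation (average log2 change 0.58 ± 0.11 (SE), adjusted p = 0.011). Its rise was called in both modes, yet the mechanical 100% samples lay below the spontaneous 21% ones. Hsph1, an Hsp110 family exchange factor, rose, with changes of 0.84 and 0.48 in the modes, and so did the small heat shock protein gene Cryab, with 0.96 and 0.48.

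Not every chaperone gene followed. Hspb1, Hsp90ab1 and Dnaja2 fell, the first pair among the brightest probe sets of the array. Hsp90ab1, the constitutive Hsp90, went from 20266 and 17112 to 12192 and 17467 in spontaneous breathing and from 15184 and 16820 to 6113 and 7477 under mechanical ventilation (average log2 change -0.80 ± 0.13 (SE), adjusted p = 0.0063), and after quantile normalization its change was -0.36 (adjusted p = 0.012). The small heat shock protein gene Hspb1 had a change of -0.76 that was -0.36 after quantile normalization and no longer called (adjusted p = 0.052), and its other probe sets did not move as one. The one with the largest fall of all tested probe sets went from 16763 and 12865 to 4912 and 7719 in spontaneous breathing and from 10147 and 11413 to 29.2 and 1574 under mechanical ventilation (average log2 change -3.16 ± 0.79 (SE), adjusted p = 0.024), a second changed by -0.76 and -1.34 and was called lower in both modes, and a dimmer one changed by 1.04 and -0.18 and is no member. The chaperone genes Hspa4, Hspa9 and Hspe1 were called on average with opposite signs and are not members. Hspe1, the partner of Hspd1, changed by 0.98 in spontaneous breathing and -0.03 under mechanical ventilation. Quantile normalization gave 13 members of the list higher and 2 lower, and leaving out any 1 sample gave 10 to 11 higher and 2 to 3 lower. Without the filter on dim probe sets 8 were called higher and 1 lower.

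**Figure D2:**
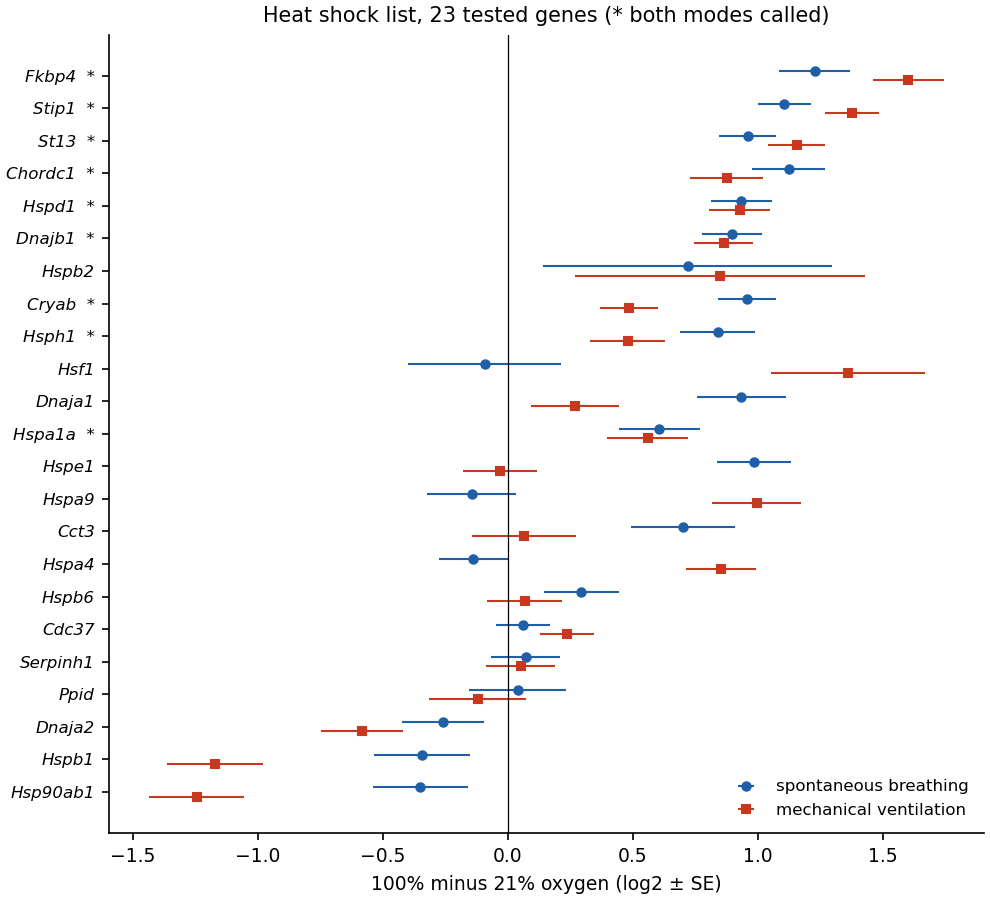
Log2 change from 21% to 100% oxygen ± SE for the 23 tested genes of the heat shock list, in spontaneous breathing (circles) and mechanical ventilation (squares). Asterisks mark the 9 genes called higher in both modes, whose changes lie between 0.48 and 1.60.

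Beyond the heat shock list, the unit was found in 7 of the 32 promoters (21.9%) of other genes called higher in both modes, those of Abcb1b, Aifm2, Azi2, B4galt1, Cct6a, Galm and Rup2. It was found in 2 of 24 promoters (8.33%) of genes called lower in both modes. The antioxidant response element core TGACNNNGC stood in 8 of 39 promoters (20.5%) of genes called higher and 2 of 24 (8.33%) of those called lower in both modes, against 15% of the promoters of tested genes. The cyclic AMP response element TGACGTCA was in none of these 39 or 24 windows, and the AP-1 site TGANTCA in 3 of 39. For the xenobiotic response element core GCGTG the shares were 43.6% and 41.7%, against 47.1% of tested genes. The E-box CACGTG was in 5.13% and 12.5% against 9.2%, and the hypoxia core ACGTG, which overlaps it, in 30.8% and 25% against 24.7%. A match says that the letters are there, not that a factor binds.

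Among antioxidant genes the rise was led by haem oxygenase. Hmox1, which degrades haem to biliverdin, iron and carbon monoxide and is a classic Nrf2 target, went from 1332 and 1517 to 4392 and 3554 in spontaneous breathing and from 1382 and 1199 to 5755 and 5691 under mechanical ventilation (average log2 change 1.78 ± 0.10 (SE), adjusted p = 4.0e-05). All 4 samples with 100% oxygen stood above all 4 with 21%. A second probe set of Hmox1 changed by 1.54 and 2.51 in the modes. The thioredoxin reductase gene Txnrd1 went from 2151 and 2487 to 3742 and 3419 in spontaneous breathing and from 2886 and 1881 to 4635 and 3966 under mechanical ventilation (average log2 change 0.74 ± 0.14 (SE), adjusted p = 0.0093). Nfe2l2, which encodes Nrf2 itself, went from 1567 and 2225 to 2543 and 2493 in spontaneous breathing and from 2288 and 1954 to 3037 and 3018 under mechanical ventilation (average log2 change 0.47 ± 0.12 (SE), adjusted p = 0.027). The glutathione transferase gene Gsta3 rose too (0.61 ± 0.16, adjusted p = 0.03). Both Nfe2l2 and Gsta3 lost their call without any 1 of 5 samples, and neither Txnrd1, Nfe2l2 nor Gsta3 was called without the filter on dim probe sets.

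More genes of the antioxidant and haem list fell than rose. Of 39 tested, 4 (10.3%) rose and 10 (25.6%) fell with the same sign in both modes, against 8.96% and 9.27% of all tested genes. The 10 became 2 without letter a of mechanical 100% or of mechanical 21%, 3 without letter b of mechanical 21% and 5 to 7 without any other sample, and the filter on dim probe sets mattered too, with 1 higher and 4 lower in its absence. Catalase, Cat, which splits hydrogen peroxide, went from 1141 and 1371 to 775 and 796 in spontaneous breathing and from 1288 and 1138 to 1009 and 1080 under mechanical ventilation (average log2 change -0.43 ± 0.10 (SE), adjusted p = 0.02). The carbonyl reductase gene Cbr1 went from 539 and 566 to 401 and 418 in spontaneous breathing and from 774 and 862 to 224 and 419.8 under mechanical ventilation (average log2 change -0.85 ± 0.18 (SE), adjusted p = 0.013). Both genes had no overlap between oxygen levels, though the Cat call was lost without 4 of the 8 samples in turn and that of Cbr1 without letter b of mechanical 21%. The epoxide hydrolase gene Ephx1 fell as well, with changes of -0.31 and -0.31 in the modes (-0.31 ± 0.08, adjusted p = 0.023).

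Several of the others that fell are among the brightest genes of the lung. The secreted peroxidase gene Gpx3 went from 16229 and 13781 to 9579.8 and 13190 in spontaneous breathing and from 11070 and 11888 to 6416 and 6917 under mechanical ventilation (average log2 change -0.60 ± 0.12 (SE), adjusted p = 0.011), and its change was -0.19 after quantile normalization. Gpx1 and Prdx6, further peroxidases, had changes of -0.43 and -0.42, which quantile normalization brought to -0.01 and -0.01. Those of the glutathione transferase genes Gstp1 and Mgst1 went from -0.27 and -0.28 to -0.16 and 0.06. None of these 4 was then called. Genes of the same pathway that are usual Nrf2 targets did not pass. The glutamate cysteine ligase subunit gene Gclm went from 475 and 673 to 686 and 763 in spontaneous breathing and from 646 and 615 to 749.7 and 757 under mechanical ventilation (average log2 change 0.29 ± 0.13 (SE), adjusted p = 0.14), and Nqo1, a quinone reductase, changed by -0.10 and 0.01 in the modes and is no member. Sod2, the mitochondrial superoxide dismutase, changed by -0.06 and -0.49 and was not called (adjusted p = 0.05 on average, 0.023 after quantile normalization).

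**Figure D3:**
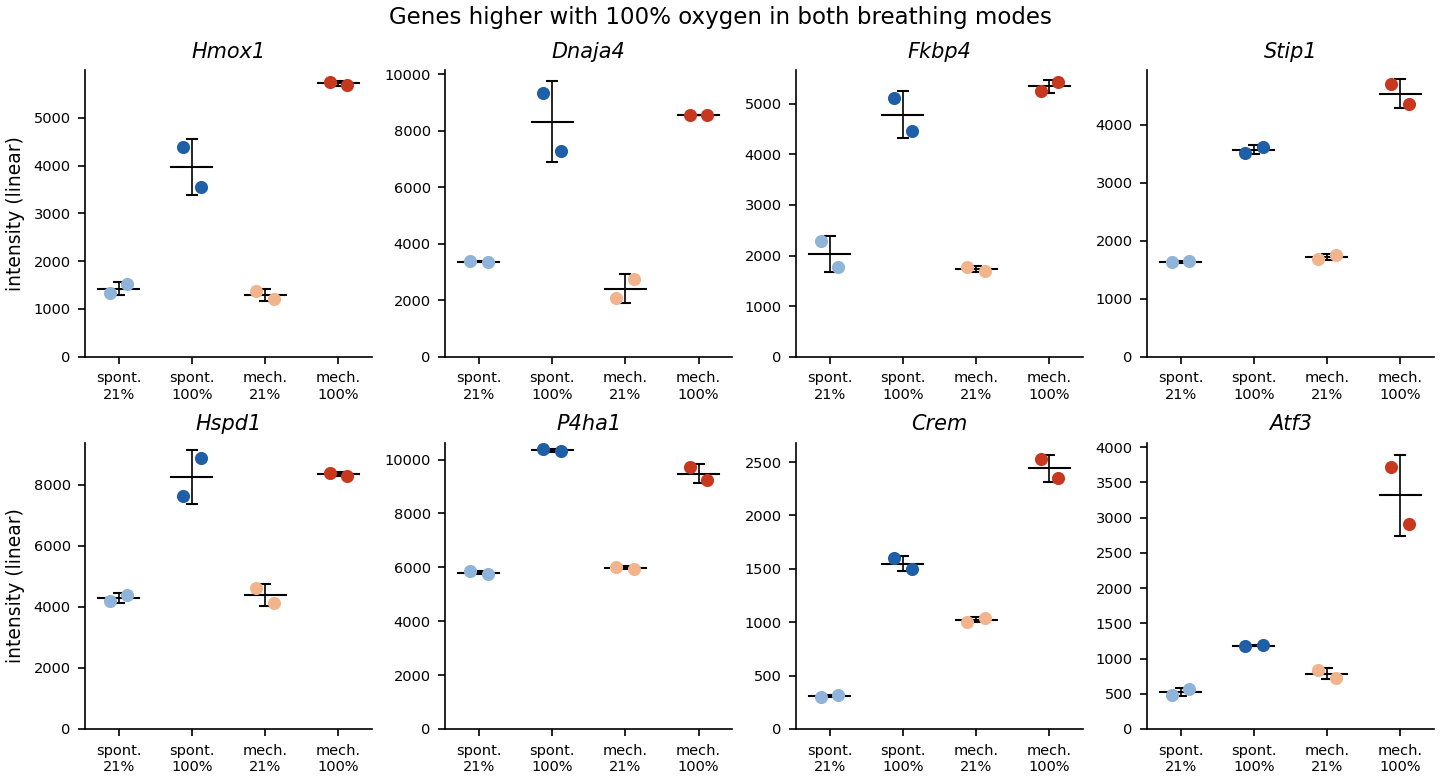
Intensity of 8 genes called higher with 100% oxygen in both breathing modes, on a linear axis from 0. Points are the 8 samples, horizontal lines the mean of the 2 samples of a group and bars the SD. For every gene the 4 samples with 100% oxygen lie above the 4 with 21%, which the naming rule required of Dnaja4.

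Many immediate early genes, most of them transcription factors, rose. Of 36 tested genes on the list 13 (36.1%, against 8.96% of all tested genes) rose and 1 (2.78%, against 9.27%), Id2, fell as members, 6 more were called with opposite signs, and the median of the list was 0.35. Of the 13 that rose 5 were called in both modes. Crem, a regulator that answers cyclic AMP, went from 302 and 319 to 1599.7 and 1498 in spontaneous breathing and from 1006 and 1038 to 2532 and 2351 under mechanical ventilation (average log2 change 1.70 ± 0.09 (SE), adjusted p = 2.8e-05). Here the spontaneous change was the larger, 2.18 against 1.22 (interaction adjusted p = 0.0062). Atf3, a stress-induced factor, went from 487 and 566 to 1175 and 1192 in spontaneous breathing and from 843 and 728 to 3725 and 2907 under mechanical ventilation (average log2 change 1.57 ± 0.11 (SE), adjusted p = 1.4e-04), with the larger change under mechanical ventilation (interaction adjusted p = 0.022). Egr1, a zinc finger factor, went from 997 and 1138 to 1691 and 1640.5 in spontaneous breathing and from 1579.5 and 1761 to 6424 and 5833 under mechanical ventilation (average log2 change 1.24 ± 0.09 (SE), adjusted p = 1.4e-04), and the values of spontaneous 100% lay within those of mechanical 21%. Another tested probe set of Egr1 changed by -1.32 and 0.81, against the first in spontaneous breathing.

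The AP-1 genes Fos and Junb rose in both modes. Fos went from 1154 and 1065 to 1584 and 1753 in spontaneous breathing and from 1064 and 1189 to 3479 and 3334 under mechanical ventilation (average log2 change 1.07 ± 0.09 (SE), adjusted p = 2.2e-04). Junb went from 1616 and 1843 to 3439.6 and 2989.6 in spontaneous breathing and from 2281 and 1784 to 4151 and 3233 under mechanical ventilation (average log2 change 0.86 ± 0.12 (SE), adjusted p = 0.0035), with changes of 0.88 and 0.85. Both AP-1 genes were called in each mode and had no overlap. Jun, Nr4a1, Nr4a3, Klf6 and Myc rose on average but were not called in spontaneous breathing, where their changes were 0.21, 0.57, 0.67, 0.62 and 0.31. Under mechanical ventilation these 5 genes changed by 1.57, 3.25, 3.30, 1.57 and 1.29. Their further probe sets varied. A dimmer one of Jun, also a called member, changed by 1.39 (not called in that mode) and 2.33, another of Jun by -0.12 and 1.77, and 1 of Nr4a3 by 0.99 and 0.83. Zfp36, which destabilises cytokine messages, went from 1788 and 1754 to 2605 and 2132 in spontaneous breathing and from 1148 and 1066 to 4427 and 4399 under mechanical ventilation (average log2 change 1.18 ± 0.09 (SE), adjusted p = 1.7e-04), and its changes of 0.40 and 1.96 differed by the interaction test (adjusted p = 0.001). Klf4, Klf10, Sgk1 and Nfkbia are among the genes called with opposite signs, each lower in spontaneous breathing and higher under mechanical ventilation.

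Of 25 tested cytokine, chemokine and adhesion genes 7 (28%, against 8.96% of all tested genes) rose and 1 (4%) fell, and none of the 7 was called in both modes. Leaving out 1 sample gave 3 to 7 higher, and testing all probe sets 4. Il1a, interleukin 1 alpha, went from 1133 and 1050.5 to 1375 and 1459 in spontaneous breathing and from 1067 and 945 to 2412 and 2044 under mechanical ventilation (average log2 change 0.74 ± 0.10 (SE), adjusted p = 0.0023). The chemokine gene Ccl3 went from 44.8 and 65.9 to 167 and 124 in spontaneous breathing and from 107 and 14.2 to 408 and 422 under mechanical ventilation (average log2 change 1.65 ± 0.31 (SE), adjusted p = 0.0092), from values near the limit of 112 under which probe sets were not tested. Its call was lost without that limit. Il6, a cytokine of the acute phase response, shared its sign but not its size. Its values were -17.7 and -54.4 in spontaneous 21% and 485 and 461 in spontaneous 100%. Under mechanical ventilation they were 377 and 384 at 21% and 432 and 425 at 100%, so that the spontaneous 21% samples stood apart. Its changes were 3.68 and 0.15, and the interaction was called (adjusted p = 1.6e-04). The chemokine receptor gene Cxcr4 rose, with changes of 0.38 and 0.42 in the modes (0.40 ± 0.09, adjusted p = 0.015).

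Several plasma protein genes known from the liver rose. Alb, the albumin gene, went from 125 and 188 to 683 and 763 in spontaneous breathing and from 296 and 198 to 673 and 571 under mechanical ventilation (average log2 change 1.60 ± 0.17 (SE), adjusted p = 9.7e-04). Ttr, the thyroid hormone carrier, went from 59.1 and 112 to 900.1 and 686 in spontaneous breathing and from 492 and 429.8 to 811 and 784 under mechanical ventilation (average log2 change 1.75 ± 0.17 (SE), adjusted p = 6.2e-04). Serpina1, the inhibitor of neutrophil elastase, went from 728 and 855 to 1292 and 1098 in spontaneous breathing and from 1019 and 1124 to 2433 and 2115 under mechanical ventilation (average log2 change 0.81 ± 0.11 (SE), adjusted p = 0.0023). Ahsg, fetuin A, which was not on the liver list, went from 120.1 and 198 to 514 and 433 in spontaneous breathing and from 148 and 141 to 519 and 391 under mechanical ventilation (average log2 change 1.40 ± 0.18 (SE), adjusted p = 0.0023), with changes of 1.39 and 1.40. Of 4 tested liver markers these first 3 rose, against 8.96% of all tested genes, and all 3 were called in both modes, against 1.57%. The summed level of the list was 1132 to 2056 in the 21% samples and 2840 to 4317 in the 100% samples. The part of RNA from another tissue in this result was not tested. Another probe set of Alb changed by -0.14 and 0.61 and was not called (adjusted p = 0.36). The Serpina1 values of spontaneous 100% met those of mechanical 21%.

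Other genes of large change have varied roles. Rgs1, which dampens G protein signalling in leukocytes, went from 173 and 219 to 643 and 489 in spontaneous breathing and from 265 and 167 to 726 and 703 under mechanical ventilation (average log2 change 1.47 ± 0.17 (SE), adjusted p = 0.0014). Npr3, the clearance receptor for natriuretic peptides, went from 467 and 737 to 1468 and 1296 in spontaneous breathing and from 487 and 582 to 2173 and 1606 under mechanical ventilation (average log2 change 1.46 ± 0.17 (SE), adjusted p = 0.0012). Azi2, an adaptor of antiviral kinase signalling, went from 690.4 and 575 to 1735 and 1163 in spontaneous breathing and from 652 and 436 to 1641 and 1444 under mechanical ventilation (average log2 change 1.29 ± 0.17 (SE), adjusted p = 0.0023). The samples of these 3 genes did not overlap between oxygen levels, which the naming rule required. Mphosph8, a chromatin silencing protein, rose, with changes of 1.39 and 1.34 in the modes. Rup2 was near 0 in spontaneous 21%, at 3.43 and 28.7, and at 671 and 533 in spontaneous 100%, 209 and 225 in mechanical 21% and 539 and 531 in mechanical 100% (average log2 change 2.35 ± 0.19 (SE), adjusted p = 2.0e-04). The glutamate receptor gene Gria4 rose (1.60 ± 0.32, adjusted p = 0.012), though its 21% values were 86.4 and 138 in spontaneous breathing and 18.3 and 125 under mechanical ventilation, about the limit for testing, and the call was lost without the filter.

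Probe sets of the translation machinery went both ways. Rpl17 and Rpl30, ribosomal protein genes read here by probe sets of moderate brightness, went from 600.2 and 546 to 1272 and 1901 in spontaneous breathing and from 343 and 185 to 861 and 749 under mechanical ventilation (average log2 change 1.45 ± 0.20 (SE), adjusted p = 0.0027) and, for Rpl30, from 573 and 593 to 1287 and 1604 in spontaneous breathing and from 437 and 283 to 1005 and 770.0 under mechanical ventilation (average log2 change 1.24 ± 0.16 (SE), adjusted p = 0.0023). Rplp0, the acidic ribosomal stalk protein, fell. It went from 19233 and 14957 to 6426 and 10197 in spontaneous breathing and from 10520 and 12814 to 3288 and 4921 under mechanical ventilation (average log2 change -1.30 ± 0.18 (SE), adjusted p = 0.0033), and after quantile normalization its change was -1.09. Rpl36al1 went from 8698 and 7660.4 to 4009 and 5568 in spontaneous breathing and from 6805 and 6879 to 2143 and 3136 under mechanical ventilation (average log2 change -1.09 ± 0.15 (SE), adjusted p = 0.0025). Elongation factor gene Eef2 fell (-0.78 ± 0.13, adjusted p = 0.0062), but its other 3 tested probe sets were not called, and those of Eef1a1 were called in opposite directions, at -0.53 and 1.02. Ribosomal protein genes have many near-identical copies in the genome, so the source of such signals is uncertain.

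Genes that fell included cytochrome P450 genes, and Car4 and Slc6a4 of the capillary bed, while none of the 5 tested endothelial markers was a member. Cyp1a1, the enzyme induced through the aryl hydrocarbon receptor and the classic detoxifier of polycyclic compounds, went from 695 and 597 to 144 and 117 in spontaneous breathing and from 1215 and 1083 to 441 and 319 under mechanical ventilation (average log2 change -1.76 ± 0.14 (SE), adjusted p = 2.2e-04). All 4 samples with 100% oxygen lay under the lowest sample with 21%. Cyp2e1, which oxidises ethanol and small solvents, went from 2935 and 2737 to 1433 and 1409 in spontaneous breathing and from 2778 and 2708 to 1454 and 1638 under mechanical ventilation (average log2 change -0.90 ± 0.08 (SE), adjusted p = 3.9e-04), and its 2 further probe sets fell as well. Por, the reductase that feeds electrons to P450 enzymes, went from 5225 and 5478 to 3158 and 3865 in spontaneous breathing and from 3941 and 3985 to 3216 and 3721 under mechanical ventilation (average log2 change -0.40 ± 0.09 (SE), adjusted p = 0.019), a call that was lost without any 1 of 3 samples. Cyp2c23 fell, with changes of -0.58 and -0.56 in the modes (-0.57 ± 0.16, adjusted p = 0.033). Cyp2b2 also fell (-0.37 ± 0.09, adjusted p = 0.022), but its change was 0.04 and not called after quantile normalization (adjusted p = 0.63).

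In all, 7 of the 21 tested genes on the aryl hydrocarbon receptor and P450 list fell as members (33.3%, against 9.27% of all tested genes) and 3 rose (14.3%, against 8.96%). Those that rose were Cyp2j3 (1.25 ± 0.22, adjusted p = 0.0078), an arachidonic acid epoxygenase, Cyp2f4 (0.43 ± 0.08, adjusted p = 0.0078), a P450 of airway club cells, and Cyp2a3 (0.36 ± 0.08, adjusted p = 0.018). Cyp2f4 changed by 0.15 in spontaneous breathing and 0.71 under mechanical ventilation, which differed by the interaction test (adjusted p = 0.032). The 7 became 2 without letter a of mechanical 21% or of mechanical 100%, 4 to 6 without any other sample, and 3 without the filter. The list thus held members of both directions, and the median over its tested genes was -0.044.

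Car4, the carbonic anhydrase on the surface of lung capillaries, went from 2646 and 2639 to 858 and 835 in spontaneous breathing and from 2412 and 2297 to 1159 and 1358 under mechanical ventilation (average log2 change -1.24 ± 0.09 (SE), adjusted p = 1.2e-04). Its change was larger in spontaneous breathing, at -1.60 against -0.89 (interaction adjusted p = 0.019). Car2, the cytosolic carbonic anhydrase, moved the other way, from 2452 and 2311 to 3937 and 3680.4 in spontaneous breathing and from 2726 and 2690 to 3547 and 3507 under mechanical ventilation (average log2 change 0.52 ± 0.07 (SE), adjusted p = 0.0035). Slc6a4, the serotonin transporter that lung endothelium uses to clear serotonin, went from 344 and 344 to 59.5 and 34.5 in spontaneous breathing and from 171 and 156 to 6.21 and 123 under mechanical ventilation (average log2 change -1.69 ± 0.37 (SE), adjusted p = 0.015). Its 100% values lay near or under the limit for testing, and its call was lost without letter b of spontaneous 100% and without the filter. Of the 5 tested endothelial markers none was a member. Pecam1, the adhesion molecule between endothelial cells, changed by -0.84 in spontaneous breathing and 0.15 under mechanical ventilation. The summed markers were 12479 and 14201 in spontaneous 21%, 6700 and 6917 in spontaneous 100%, 7277 and 8233 in mechanical 21% and 10676 and 11836 in mechanical 100%. Their part in the Car4 and Slc6a4 results was not tested.

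Further genes that fell have varied roles. Hsd3b7, a dehydrogenase of bile acid synthesis, went from 611 and 751 to 393 and 335 in spontaneous breathing and from 859.5 and 803 to 243 and 255 under mechanical ventilation (average log2 change -1.21 ± 0.12 (SE), adjusted p = 7.2e-04). Slc27a1, a fatty acid transporter, went from 508 and 365 to 59.5 and 71.7 in spontaneous breathing and from 408 and 385 to 79.9 and 248 under mechanical ventilation (average log2 change -1.70 ± 0.27 (SE), adjusted p = 0.0053). Both had no overlap between oxygen levels, which the naming rule required. Among further genes called lower in both modes, named after their values were seen, are Cpt2 (-0.57 and -0.60) and Ech1 (-0.62 and -0.58) of fatty acid oxidation, Bcat2 (-0.62 and -0.53) of branched amino acid breakdown and Alad (-0.70 and -0.54) of haem synthesis. Zfp386, a zinc finger gene, went from 451 and 495 to 273 and 231 in spontaneous breathing and from 461 and 472 to 229 and 231 under mechanical ventilation (average log2 change -0.86 ± 0.13 (SE), adjusted p = 0.0038), and all 4 samples with 100% lay below all 4 with 21%, which the naming rule required. Clpb fell in 1 probe set, from 607 and 636 to 192 and 191 in spontaneous breathing and from 684 and 614 to 187 and 386 under mechanical ventilation (average log2 change -1.34 ± 0.19 (SE), adjusted p = 0.0035), while another changed by 0.29 and 0.24. Creg1, a secreted glycoprotein gene, fell, from 355 and 1150.4 to 124 and -48 in spontaneous breathing and from 412 and 820.5 to -106 and 193 under mechanical ventilation (average log2 change -2.89 ± 0.67 (SE), adjusted p = 0.019), yet its letters lay far apart within each group, values below 0 entered as 0, and it was called in neither mode.

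**Figure D4:**
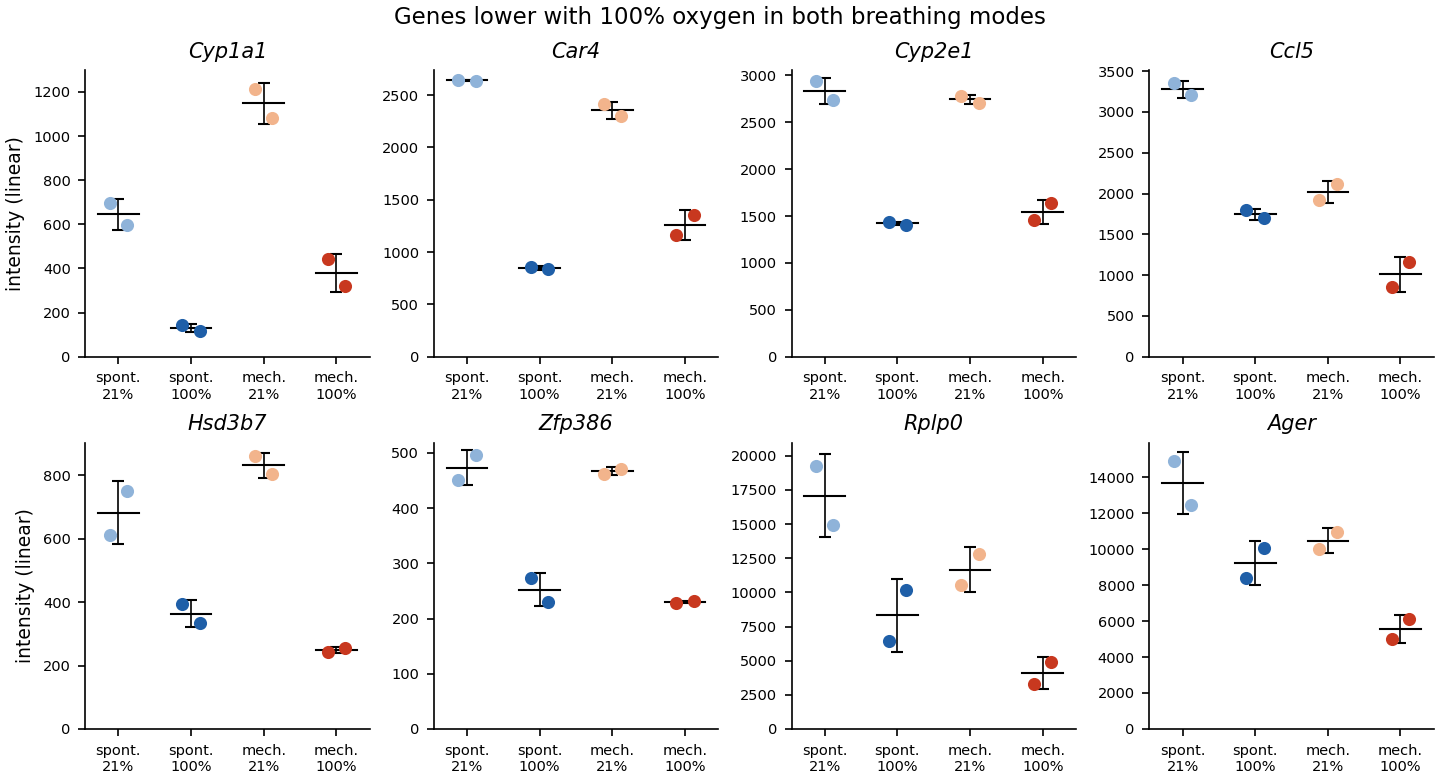
Intensity of 8 genes called lower with 100% oxygen in both breathing modes, on a linear axis from 0. Points are the 8 samples, horizontal lines the mean of the 2 samples of a group and bars the SD; Rplp0 and Ager are among the brightest probe sets, and for Ager the spontaneous 100% and mechanical 21% samples overlap.

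Some genes of immune recognition fell. Ccl5, which attracts T cells, went from 3351 and 3203 to 1793 and 1695 in spontaneous breathing and from 1919.5 and 2116 to 857 and 1159.7 under mechanical ventilation (average log2 change -0.94 ± 0.11 (SE), adjusted p = 0.0013), the only cytokine gene of the list to fall. Tap2, which pumps peptides to class I molecules, went from 981 and 1122 to 569 and 659.9 in spontaneous breathing and from 1965 and 1767 to 1162 and 1052 under mechanical ventilation (average log2 change -0.74 ± 0.10 (SE), adjusted p = 0.0031). Its changes of -0.74 and -0.73 differed by less than their error (interaction adjusted p = 0.99), while mechanical 21% lay above spontaneous 21%. RT1-Da, a class II antigen gene, went from 12442 and 11006 to 8547 and 9018 in spontaneous breathing and from 9916 and 10363 to 6842 and 7101 under mechanical ventilation (average log2 change -0.48 ± 0.08 (SE), adjusted p = 0.006), and after quantile normalization its change was -0.09 and not called (adjusted p = 0.32). Mx2, an interferon-induced GTPase, went from 1139 and 1171 to 921 and 1152 in spontaneous breathing and from 1188 and 1161 to 246 and 314 under mechanical ventilation (average log2 change -1.05 ± 0.12 (SE), adjusted p = 0.0012), with changes of -0.16 and -1.93 in the modes (interaction adjusted p = 0.0018). Of 23 tested genes on the interferon and antigen processing list 7 (30.4%, against 9.27% of all tested genes) fell and 1 rose, Irf8 (0.44 ± 0.11, adjusted p = 0.026). The immunoproteasome genes Psmb8 (-0.05 and -1.01) and Psmb9 (-0.27 and -0.81) were among those that fell.

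T lymphocyte genes moved with this group of genes in mechanical ventilation. Of 9 tested T and natural killer markers 6 fell as members (3 to 6 with 1 sample left out), against 9.27% of all tested genes. None rose, and 2 more, Lck and Gzmb, were called with opposite signs. Thy1, a T cell surface protein in rodents, went from 258 and 166 to 195 and 172 in spontaneous breathing and from 7727 and 9575 to 173 and 138 under mechanical ventilation, and Cd3g, of the T cell receptor complex, from 603 and 474 to 375 and 322 in spontaneous breathing and from 4467 and 4691 to 271 and 263 under mechanical ventilation. The fall thus sat in high values of mechanical 21%. The summed level of the 13 markers on the array was 31532 and 33460 in mechanical 21% against 3012 to 3779 in all other samples, with 1 marker at or below 0 everywhere. The changes of Thy1 were -0.15 and -5.47, of Cd3d -0.56 and -4.90 and of Cd8a -0.33 and -5.40, all with a called interaction. Gzmk, a granzyme, and Spn, the leukocyte surface protein CD43, fell with no overlap, which the naming rule required. Gzmk went from 371 and 433 to 140.0 and 221 in spontaneous breathing and from 292 and 296 to 65.2 and 52 under mechanical ventilation (average log2 change -1.44 ± 0.19 (SE), adjusted p = 0.0023) and Spn from 164 and 149 to 83.5 and 50 in spontaneous breathing and from 347 and 447 to 47.4 and 57.2 under mechanical ventilation (average log2 change -1.58 ± 0.19 (SE), adjusted p = 0.0017). The part of these cells in the fall of the immune genes was not tested. In the same way summed fat markers were 21310 and 22683 in mechanical 21% against 8413 to 11923 elsewhere, and fast skeletal muscle markers 31249 and 32264 in spontaneous 100% against 4758 to 11307 elsewhere. Of the 8 tested fat and 14 tested muscle markers none was a called member.

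Markers of alveolar type 2 cells were lower with oxygen, and those of type 1 and airway cells went both ways. Ager, of type 1 cells, went from 14892 and 12468 to 8370.5 and 10084 in spontaneous breathing and from 9983 and 10954 to 4999 and 6094 under mechanical ventilation (average log2 change -0.75 ± 0.11 (SE), adjusted p = 0.0038). Sftpc, surfactant protein C of type 2 cells, went from 14817 and 10627 to 6019.6 and 9660.2 in spontaneous breathing and from 7784 and 9252 to 3543 and 4262 under mechanical ventilation (average log2 change -0.92 ± 0.17 (SE), adjusted p = 0.0091). Sftpb fell, with changes of -0.54 and -1.49 in the modes (-1.01 ± 0.17, adjusted p = 0.0066), and so did Sftpa1, with -0.40 and -0.34 (-0.37 ± 0.10, adjusted p = 0.03). Scgb1a1, secreted by club cells of the airway, went from 10788 and 9769 to 7601 and 8207 in spontaneous breathing and from 8894 and 8294 to 6831 and 6763 under mechanical ventilation (average log2 change -0.36 ± 0.08 (SE), adjusted p = 0.016). All 4 tested type 2 markers were lower in both modes and 3 were called, against 9.27% of all tested genes called lower. Without the filter on dim probe sets none of the 4 was called. After quantile normalization 2 were called lower and 1 higher. Of 4 type 1 markers Ager alone was called, Pdpn changed by 0.03 and 0.06, and Aqp5 and Cav1 had opposite signs. Of 4 airway markers 3 were higher in both modes, Cyp2f4 and Cyp2a3 (above) with a call and Foxj1, of ciliated cells, at 0.75 and 0.48 without one. After quantile normalization the changes of Ager, Sftpc, Sftpb, Sftpa1 and Scgb1a1 were -0.49, -0.77, -0.69, 0.11 and -0.02, and the last pair was no longer called.

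Brightness and direction were tied over the whole array. In the brightest 10% of tested probe sets, 525 in all, 212 called members were lower and 30 higher, and the median change was -0.26. Quantile normalization gave 112 lower and 73 higher there, with a median of -0.011. In the next 40% the called members were 188 lower and 282 higher before and 253 and 211 after it, and in the dimmest 50% 132 and 197 before and 192 and 154 after. The haemoglobin gene Hbb (-1.14 ± 0.24, adjusted p = 0.013), the lysozyme gene Lyz2 (-0.90 ± 0.15, adjusted p = 0.0054) and the matrix Gla protein gene Mgp (-0.79 ± 0.14, adjusted p = 0.0078) belong to the bright members that fell. Their changes were -0.94, -0.77 and -0.54 after quantile normalization, all still called. Summed red cell markers were 23277 to 40577 in the 21% samples and 14146 to 33670 in the 100% samples.

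The matrix and hypoxia lists held called members of both directions. P4ha1, the prolyl hydroxylase that matures collagen, was called in each mode and went from 5853 and 5761 to 10383 and 10300 in spontaneous breathing and from 6017 and 5937 to 9723 and 9237 under mechanical ventilation (average log2 change 0.74 ± 0.07 (SE), adjusted p = 5.5e-04). Mmp8, neutrophil collagenase, went from 649 and 600.3 to 1416 and 1205 in spontaneous breathing and from 1155 and 889 to 1666 and 1395 under mechanical ventilation (average log2 change 0.79 ± 0.12 (SE), adjusted p = 0.0045). Mmp8 was called in each mode too. Plod1, a lysyl hydroxylase of collagen, rose (0.98 ± 0.14, adjusted p = 0.0033), with changes of 0.06 and 1.90 that differed by the interaction test (adjusted p = 0.0027). The crosslinking enzyme gene Loxl1 rose, with changes of 0.37 and 1.06. Of 35 tested matrix genes 5 (14.3%, against 8.96% of all tested genes) rose, 3 (8.57%, against 9.27%) fell, 1 to 4 with a sample left out, and 4 were called with opposite signs, Fn1 and Col1a2 among these last. On the hypoxia list 3 of 24 rose and 3 fell, 12.5% each, near the 8.96% and 9.27% of all tested genes. The 3 that fell became 1 or 2 in every fit with a sample left out and 1 after quantile normalization or cyclic loess. Vegfa, the endothelial growth factor, changed by 0.17 and 1.06 (0.61 ± 0.10, adjusted p = 0.0061), and the glycolytic gene Pgam1 by -0.22 and -0.85 (-0.54 ± 0.08, adjusted p = 0.0047). Slc2a1, the glucose transporter, had opposite signs, -0.68 and 0.22.

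Genes of endoplasmic reticulum stress and of sterol synthesis gave called members on the higher side alone. On the former list 4 of 15 tested genes (26.7%, against 8.96% of all tested genes) rose and none fell. Ddit3, the stress factor CHOP, went from 826 and 1084 to 1592 and 1608 in spontaneous breathing and from 1193 and 1160.1 to 1668 and 1566 under mechanical ventilation (average log2 change 0.59 ± 0.10 (SE), adjusted p = 0.0074) and was called in both modes. Pdia4, a disulphide isomerase, went from 1918 and 2098 to 2555 and 2652 in spontaneous breathing and from 1443 and 1262 to 3910.1 and 3479 under mechanical ventilation (average log2 change 0.90 ± 0.09 (SE), adjusted p = 6.4e-04), with the larger change under mechanical ventilation (interaction adjusted p = 0.0042). Hyou1 and Asns rose too, but each lost its call without any 1 of 7 samples and after quantile normalization. On the cholesterol and fatty acid list 3 of 17 (17.6%, against 8.96% of all tested genes) rose and none fell as members. Without the filter 1 was called higher. Fdps (0.67 and 0.30), Idi1 (0.68 and 0.26) and Cyp51 (0.99 and 0.92) are enzymes of sterol synthesis, but 3 further probe sets of Cyp51 were not called.

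On the remaining lists counts were small, and all but those of the circadian list dropped by over 1.5 times in a direction when some sample was left out. Called members made up 0 to 16% of a list higher and 0 to 20% lower, beside 8.96% and 9.27% of all tested genes. Of 20 tested cell cycle genes 4 fell and 1 rose. Top2a, the topoisomerase of dividing cells, went from 849 and 711 to 556 and 586 in spontaneous breathing and from 1560.2 and 1200.4 to 896 and 737 under mechanical ventilation (average log2 change -0.57 ± 0.13 (SE), adjusted p = 0.016), and Cdc25b, a phosphatase that starts mitosis, rose (0.51 ± 0.10, adjusted p = 0.013). Of 31 oxidative phosphorylation genes 5 fell, none rose and 6 were called with opposite signs. Cyc1, of complex III, changed by -0.22 and -1.12, while Atp5f1b changed by -0.38 on average and by 0.004 after quantile normalization. Bcl2l1, which restrains cell death, rose (0.71 ± 0.16, adjusted p = 0.017), and Bad and Casp1 of 14 genes on the growth arrest and cell death list fell, with changes of -0.40 and -0.29, calls that most left-out samples ended. Psmd4 (0.42 and 0.43) and Ube2b (0.30 and 0.73) rose and Psmc4 fell among 24 proteasome and ubiquitin genes. Slc3a2, an amino acid transporter chain, changed by 0.22 and 1.06, and of 19 genes of its list 2 rose and 1 fell. The splicing factor gene Srsf2 rose in both modes (0.47 and 0.72), and its list of 25 RNA and ribosome genes gave 4 higher and 3 lower. The glucocorticoid list gave 2 higher and 1 lower of 14, the former being Cebpd and Zfp36. On the alveolar fluid transport list 2 of 21 rose, Car2 and Slc4a1, and 2 fell, Car4 and Slc6a4. The circadian list gave Bhlhe41 alone of 7, at 0.04 and 1.28.

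**Figure D5:**
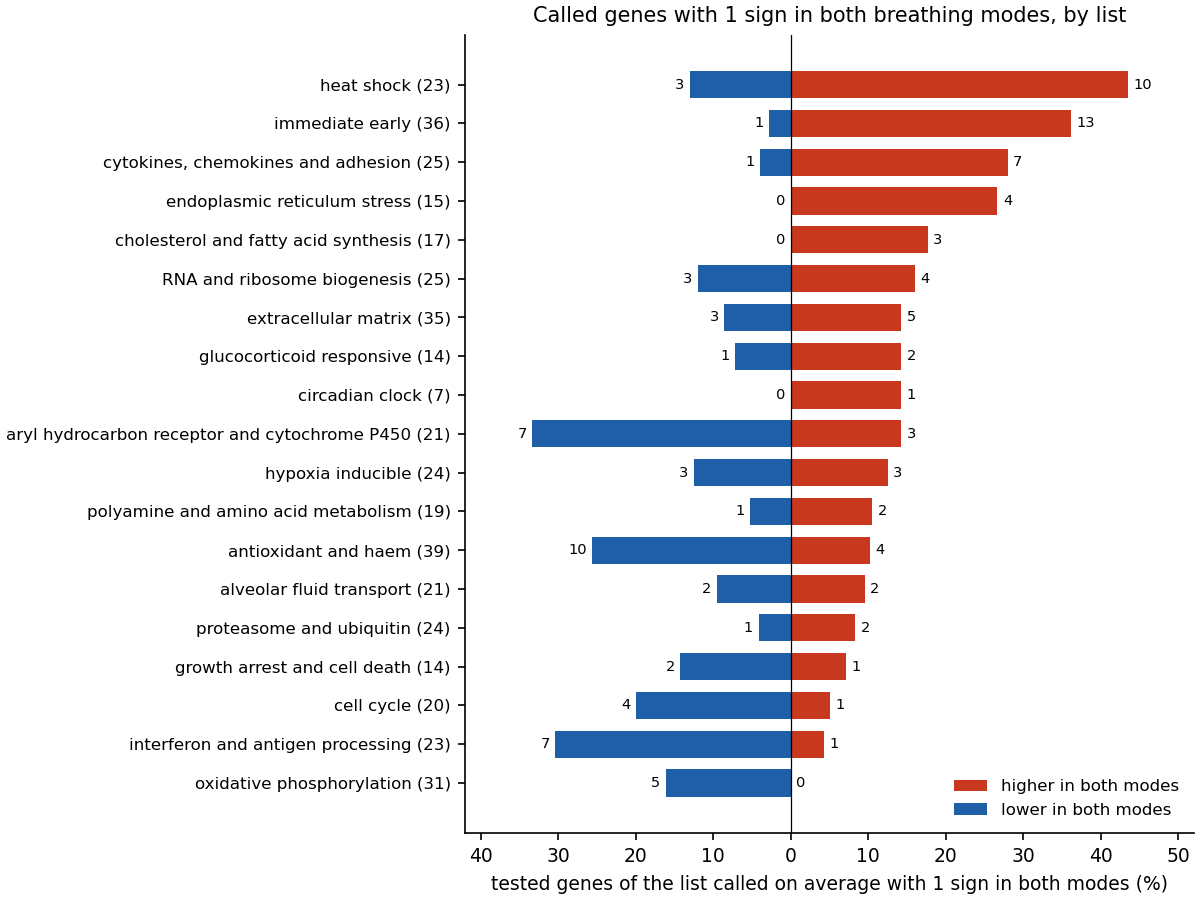
Share of the tested genes of each list (number in brackets) that were called on average and had the same sign in both breathing modes, higher with 100% oxygen to the right and lower to the left, with the number of genes at each bar. The heat shock list has the longest bar to the right, 10 of 23 genes, and the aryl hydrocarbon receptor and P450 list the longest to the left, 7 of 21.

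How evenly the modes shared a change varied among the called members. For 687 of 1041 (65.99%) the change was larger under mechanical ventilation. The interaction, the difference of the changes in the modes, was called for 1439 of 5244 tested probe sets (27.4%), and 1221 of these (84.85%) belonged to probe sets without a shared sign. Of the called members 217 (20.85%) had a called interaction, 170 of them larger under mechanical ventilation. With the lot line as a term 159 interactions were called. That line lies on NonVen21 and on Ven100 apart from 1 array, so the interaction and the lot line can be told apart only through the 2 arrays of letter b of mechanical 100%. At the even end stand Ahsg and Hspd1 (above), Galm, a sugar mutarotase, at 0.61 and 0.61, Stx12, a syntaxin of endosomes, at -0.68 and -0.67, and Mag, a myelin glycoprotein, at 1.04 and 1.04. At the uneven end stand Plscr3, which went from 597 and 526 to -97.5 and -81.4 in spontaneous breathing and from 684 and 576 to 445 and 432 under mechanical ventilation, and the T cell genes. Just inside the sign rule lay Gsta1, at -6.1e-05 and -0.61, and Tgfbrap1, at 0.0011 and 0.78. Just outside it lay Gzmb, at -0.0019 and 0.98, and Krt4, at 2.44 in spontaneous breathing with all mechanical values at or below 0.

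Genes read by several probe sets could be compared within the array. These probe sets were read on the same samples, and no such share was computed for genes that were not called members. For 96 genes that rose 130 further tested probe sets were available, of which 107 (82.31%) had the same sign on average, 61 called the same way and 2 called the other way. For 107 genes that fell it was 116 of 145 (80%), with 65 and 8. Gadd45a, a growth arrest gene, is a case of disagreement. Its brightest probe set changed by 0.22 and -0.04 and is no member, while a dimmer one changed by -1.21 and -1.03 (adjusted p = 0.019). The probe sets with the largest rises carried no single gene symbol in the annotation and are not named. The largest of them changed by 3.17 in spontaneous breathing and 3.64 under mechanical ventilation, from -16.1 and 102 to 953 and 421 in spontaneous breathing and from -10.4 and -12.2 to 342 and 611 under mechanical ventilation.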

How the data were processed

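Lung RNA of 8 rat samples was read on 9 oligonucleotide arrays, each with 8799 probe sets, of which 59 are array controls. The values are intensities as deposited by the authors, on a linear scale with values below 0 kept; how they were computed from the scans is not given in the sources used here. The 2% trimmed means of the arrays lie between 800.5 and 801.1. Groups, oxygen levels and letters come from the titles.

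Values below 0 were set to 0, an offset of 40.04 (5% of the trimmed mean) was added and log2 taken. The 2 arrays of letter b of mechanical 100% were averaged, except in the fit with a term for the lot line, which took all 9 arrays singly. The 40% of non-control probe sets with the lowest mean, up to an intensity of 112.1, were not tested, which left 5244. The moderated test of limma 3.58.1 (R 4.3.3) was run on a model of the 4 group means with a variance trend, with contrasts for oxygen averaged over the modes, within each mode and for the interaction, and p-values adjusted by Benjamini and Hochberg. In simulated data changes of 4-fold, 2-fold and 1.5-fold were called for 61 of 61, 49 of 66 and 26 of 64 probe sets in the averaged contrast.

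Of the non-control probe sets 7006 carried a single symbol, 308 several and 1426 none, and 6985 symbols were updated by gene number. A gene is represented by its brightest tested probe set with a single symbol. Promoters come from RefSeq (GRCr8) and matched 2609 of the 3181 tested genes.

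The members, the lists and the rule for named genes were chosen with earlier results of these data known. The rule names up to 15 genes a direction by the smaller of the within-mode changes among called members without overlap, up to 4 called members a list, the 6 with the largest and 6 with the smallest interaction, those next to the sign boundary and 18 genes that were always eligible. Other list members, genes called in both modes and further probe sets were named after their values were seen. The alternatives changed the scaling between arrays (quantile, cyclic loess), the offset (1%, 10%) and the filter (none, 60%), or used either array of the repeated sample, a replicate block, a term for the lot line, no variance trend, a model without interaction, oxygen alone, and each sample left out.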

Additional observations from a re-analysis of the deposited data

Results flagged for a closer look

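In 9 cases 1 of the 4 samples at an oxygen level, both modes pooled, stood apart from the other 3, with the gap as a share of the range above Dixon's 95% critical value. Chance alone gives about 1 such case in 20 groups. The 109 named genes have a group at each oxygen level, and 9 cases are not above that rate. The rate holds for 4 values from 1 normal distribution. Each group here pools both modes, and many genes were chosen by their values, so the rate is only a rough guide. At 21% oxygen the cases were Fkbp4 (0.830), where the high sample was letter a of spontaneous breathing, and St13 (0.836). At 100% they were Rup2 (0.936), Clpb (0.960), Zfp386 (0.954), Cbr1 (0.925), Cyc1 (0.869), Psmc4 (0.830) and Gclm (0.836).

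The change with oxygen differed between the modes by the interaction test for 31 called members among the 109 genes named by rule. The rule itself took 6 of them for a large called interaction, and Gsta1 and Tgfbrap1 for a spontaneous change next to 0. The interaction was called for 20.85% of all called members and 27.4% of all tested probe sets. It was also called for Krt4, Gzmb, Slc2a1 and Pecam1, which have no shared sign. For the 31 the difference is given as mechanical minus spontaneous change on the log2 scale. Among T cell and leukocyte genes it was -5.32 for Thy1, -5.07 for Cd8a, -4.34 for Cd3d, -3.34 for Cd3g and -1.36 for Spn. Among stress and signalling genes it was 0.67 for Hmox1, 0.90 for Atf3, -0.96 for Crem, 1.23 for Egr1, 1.55 for Zfp36, 1.24 for Bhlhe41, 1.05 for Pdia4, 0.75 for Il1a, -3.53 for Il6, 1.29 for Cited2 and 0.89 for Vegfa. Among metabolic, matrix and transport genes it was -0.61 for Gsta1, 0.56 for Cyp2f4, -0.63 for Pgam1, 1.84 for Plod1, 0.71 for Car4, 0.64 for Slc4a1, 0.84 for Slc3a2, -0.90 for Cyc1, -1.05 for Cox8a and -0.71 for Cox6b1. For Cdk4 it was -0.63, for Mx2 -1.77, for Rup2 -2.38, for Plscr3 3.43 and for Tgfbrap1 0.77. With a term for the lot line 159 interactions were called in place of 1439, and the part of that line in these differences cannot be told apart from the interaction except through the 2 arrays of 1 sample.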

How the results depend on the processing

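The average change was called for 1309 probe sets, and for 745 without the filter, where 8740 probe sets share the adjustment, 178 in the model without interaction and 63 with oxygen alone, where differences between the modes enter the error. Called members were 509 higher and 532 lower, against 303 and 265 without the filter, 100 and 78 without the interaction, and 48 and 15 with oxygen alone. All 178 and all 63 were members, and 139 and 62 of them were also called in both modes. Within spontaneous breathing 879 were called, 540 without the filter and 128 with the lot line term. That term also gave 898 within mechanical ventilation, 159 interactions, and 26 higher and 7 lower in both modes. Lower in both modes were 35 without the filter. The labels do not say whether the letters a and b pair samples across groups. Their deviations correlated between groups at -0.13 to 0.066, which shows no strong shared effect of the letter but cannot settle the pairing. A replicate block gave 1099 average calls, 882 of them among the 1041 called members, and 33 lower in both modes, against 57. It gave 443 and 460 called members and 80 higher in both modes.

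Leaving out 1 sample at a time gave 636 to 1131 average calls, 288 to 501 called members higher and 241 to 454 lower, 370 to 796 calls within spontaneous and 956 to 1904 within mechanical breathing, 980 to 1328 interactions, and 50 to 99 higher and 17 to 58 lower in both modes. Drops of over 1.5 times came without letter b of mechanical 21% (636 on average, 288, 241, 956 under mechanical ventilation, 59 and 18 in both modes) and letter a of mechanical 100% (726, 304, 304, 976, 65 and 30). They also came without letter a of mechanical 21% (329 lower, 1139, and 19 lower in both modes) and, for spontaneous breathing, without either letter of spontaneous 100% (396 and 370) or 21% (439 and 561). In both modes the counts were also lower without spontaneous 100% letters a (50 and 20) and b (52 higher) and spontaneous 21% letters a (68 and 17) and b (37 lower). These fits have fewer samples. Of 103 named genes that were called 28 lost the call without some sample. Signs turned for Atp5f1b under quantile normalization (0.004) and for Nqo1, not called, without letter a of mechanical 100% (0.012) or of spontaneous 100% (0.014), against -0.102 at the other end of its range without letter b of spontaneous 100%. The cause was not tested. All 50 genes higher and all 30 lower in both modes kept their sign on average under every alternative that tested them (42 and 27 with the filter of 60%). They were chosen for a shared sign called in these same samples, so the kept sign adds no further evidence. With quantile normalization 50 and 25 of them were called on average, and without interaction 44 and 27. Quantile normalization and cyclic loess gave 546 and 575 higher against 699 and 679 lower calls. With 2 samples a group, changes that were not called are not shown to be absent.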

Other observations

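Genes outside the lists add to what was called higher in both modes. Abcb1b, the multidrug exporter, changed by 0.69 in spontaneous breathing and 0.59 under mechanical ventilation, and Aifm2, an oxidoreductase that limits lipid peroxidation, by 0.80 and 0.81. Ubqln1, a ubiquitin-binding shuttle to the proteasome, changed by 0.60 and 1.22, and Traf3ip2, an adaptor of interleukin 17 signalling, by 0.85 and 0.54. B4galt1, a galactosyltransferase, changed by 0.73 and 1.02. The actin genes Actb (-0.52 and -0.64) and Actg1 (-0.47 and -0.69) were called lower in both modes. These genes were chosen after their values were seen.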
